A study of Mus musculus with 8 samples.

Results

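A set of 8 genes that mark the neural crest and the glial cells derived from it were followed across laser-captured tissue of mouse embryos: the transcription factor genes Sox10, Foxd3, Tfap2a, Tfap2b and Ets1, and the receptor genes Erbb3, Ednrb and Ngfr. They were chosen by gene name among the 55681 non-control probes of the array, and 7 of them entered a fit over 28940 genes. Of the 8 genes, 6 were found under that name, while Tfap2a and Tfap2b carried the older names Tcfap2a and Tcfap2b and were found through their RefSeq accessions, so that 11 probes in all stood for the 8 genes. The study asked how conditional loss of Geminin, a protein that restrains the licensing of DNA replication, changed transcripts in the spinal neural tube and in the paraxial tissue beside it at E10.5. There were 4 groups with 2 arrays each. Mutant neural tube and mutant paraxial tissue came from 2 embryos labelled fl/fl; cre/o, and wild-type neural tube and wild-type paraxial tissue came from 2 wild-type embryos. All embryos were C57BL/6, and each gave both tissues. Neither the promoter that drove cre, nor the cells it was active in, nor the deleted part of the gene is given in the sources used here.

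The neural crest arises at the border between the neural plate and the surface ectoderm, leaves the dorsal neural tube and migrates through the paraxial tissue. It forms the dorsal root and sympathetic ganglia, Schwann cells and melanocytes. Tfap2a and Tfap2b, paralogous AP-2 factors, and Foxd3 act early in its specification. Sox10 is kept in migrating crest and its glial lineage, where it activates Erbb3, the receptor through which neuregulin acts on Schwann cell precursors together with ErbB2. Ets1 is made by cranial crest and also by endothelium and mesenchyme. Ednrb is the receptor for endothelin 3 and is needed by melanoblasts and enteric crest, and Ngfr, the p75 neurotrophin receptor, is widely used to isolate crest cells. Several of these genes have other sources at this stage: Tfap2a is abundant in surface ectoderm, and Tfap2a, Tfap2b, Ednrb and Ngfr are also made by cells of the neural tube or its neurons.

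Probe sequences are shown for 4 of the genes, as the array design lists them, 5′ to 3′ on the transcript strand, with positions on mouse build mm9. Those of Ednrb, Erbb3 and Tfap2a stand for their genes in the fits, while the Ets1 sequence is that of its second probe, which is described beside the brighter one. The Ednrb probe lies at chr14:104220870-104220929 (minus strand) and the second Ets1 probe at chr9:32561826-32561885 (plus strand), where it covers part of the DNA-binding ETS domain. The Erbb3 probe lies at chr10:128006424-128006483 (minus strand) and ends with the stop codon, in capitals. The Tfap2a probe lies at chr13:40829040-40829099 (minus strand). Its last 50 bases are printed, from an ATG in capitals. Whether this ATG or the next one in the same frame is the start codon was not checked.
Ednrb: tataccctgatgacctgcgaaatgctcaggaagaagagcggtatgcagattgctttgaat
Ets1 (second probe): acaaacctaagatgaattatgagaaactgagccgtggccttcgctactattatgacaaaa
Erbb3: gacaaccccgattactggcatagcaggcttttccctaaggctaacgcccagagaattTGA
Tfap2a: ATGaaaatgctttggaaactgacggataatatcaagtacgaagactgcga

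Values are scaled log2 signals: log2 of the processed signal minus the 75th percentile of the array, with a common constant added back. A difference of 1 is therefore a doubling, and levels of different probes cannot be set against each other. The share of probes well above background ranged from 71.8% to 78.1% by array, and saturation affected no spot. All 8 arrays lay on 1 slide, with embryo 1 of each genotype in slide row 1 and embryo 2 in row 2. Gmnn, which encodes Geminin, read 12.11 and 11.80 in mutant neural tube, against 12.35 and 12.24 in wild-type neural tube. It read 11.42 and 11.39 in mutant paraxial tissue, against 12.20 and 11.88 in wild-type paraxial tissue. It was lower on every mutant array, but neither difference passed the test (limma adjusted p = 0.921 and 0.995 by tissue). Whether the probe lies in the deleted part is not given. The tissue labels were borne by the markers: of the 16 neural tube progenitor genes tested, 15 were higher in neural tube, and of the 17 sclerotome and mesenchyme genes, 14 were higher in paraxial tissue (limma adjusted p under 0.05, mean of both genotypes). Likewise 11 of 20 neuronal genes and 5 of 18 dorsal neural tube genes were higher in neural tube, with 1 of the 18 lower. On the paraxial side were 12 of 15 muscle, 6 of 13 erythroid and 6 of 21 surface ectoderm genes. This comparison called 12.0% of all genes, 5.94% as higher and 6.01% as lower in neural tube. A few listed genes entered the fit only through the tissue in which they were high. They were Nkx6-2 among the progenitor genes, Atoh1 and Wnt3a among the dorsal ones, and Dsp among those of surface ectoderm. Fli1, among the endothelial genes given below, was another. Tissue was captured in bulk, so that fewer cells of a type and less RNA per cell cannot be told apart.

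**Figure D1:**
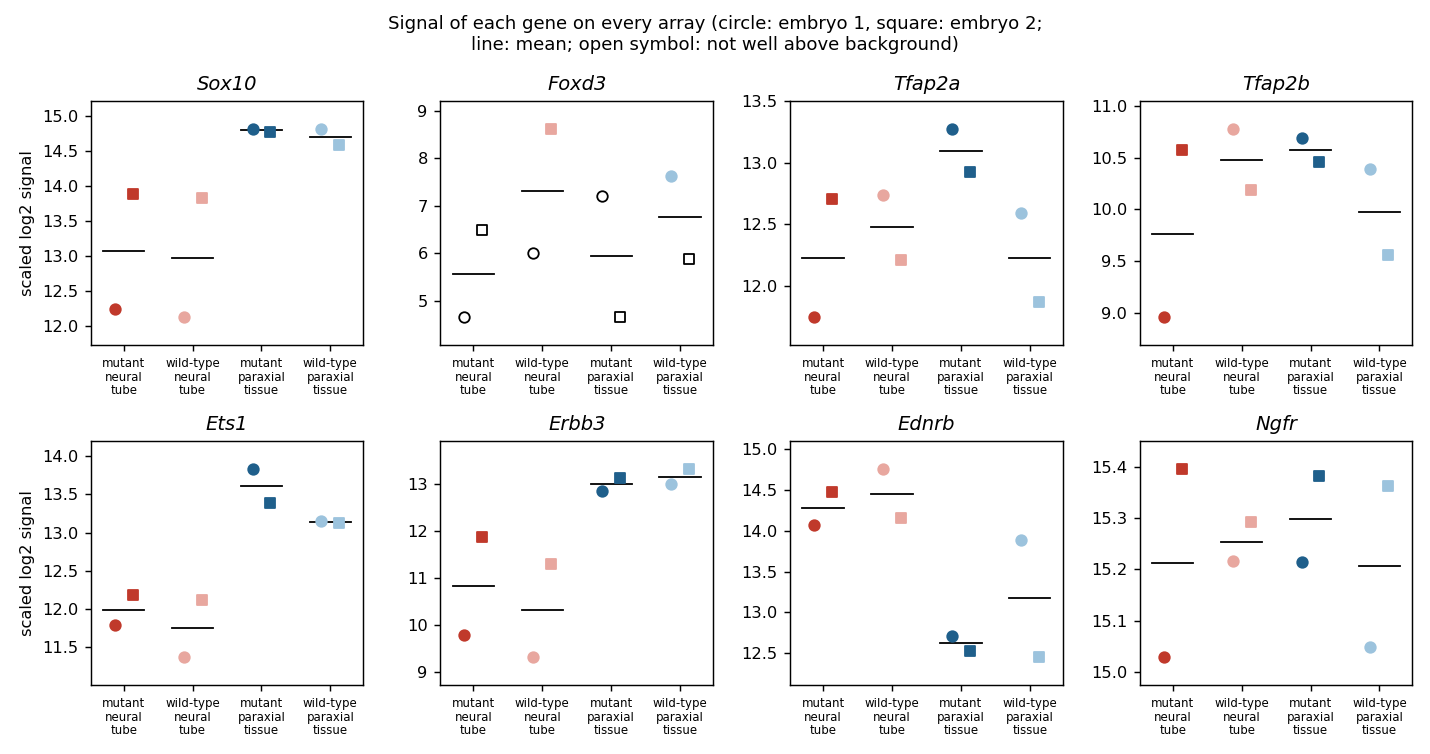
Scaled log2 signal (vertical axis, a separate range for each gene) of the probe that stands for each of the 8 genes on every array, with circles for embryo 1, squares for embryo 2, a line at the mean of each group and open symbols where the probe was not well above background. Sox10, Erbb3 and Ets1 lie lower on all 4 neural tube arrays than on all 4 paraxial arrays, Ednrb lies higher, and Ngfr stays between 15.03 and 15.40 throughout. The share of all genes whose tissues separated in this way was not counted.

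The crest and glial genes divided by tissue. Sox10, Erbb3 and Ets1 were lower in neural tube than in paraxial tissue, by 3.30-fold, 5.67-fold and 2.84-fold over both genotypes, whereas Ednrb was 2.78-fold higher. Tfap2a, Tfap2b and Ngfr did not pass the test, and Foxd3 was too dim to be tested. These 4 of 7 tested genes were called (3 lower, 1 higher in neural tube) in a comparison that called 12.0% of all 28940 genes, 5.94% as higher and 6.01% as lower in neural tube. Calls are at an adjusted p of 0.05 in a limma fit with the embryo as a random block. The p-values rest on 2 embryos per genotype.

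Sox10, the transcription factor that defines migrating crest and its glia, read 12.25 and 13.89 in mutant neural tube, 12.13 and 13.83 in wild-type neural tube, 14.81 and 14.77 in mutant paraxial tissue, and 14.81 and 14.59 in wild-type paraxial tissue. All 4 paraxial arrays were above all 4 neural tube arrays, and the paraxial arrays lay within a narrow band while the neural tube arrays were split by embryo. The share of all genes whose tissues separated in this way was not counted. This limit also holds for the tissue separations of Erbb3, Ets1 and Ednrb given below. The difference, neural tube minus paraxial tissue, was -1.72 ± 0.38 (log2 ± SE; limma adjusted p = 0.0316). Mutants alone and wild type alone each gave -1.72 ± 0.54, and neither passed (limma adjusted p = 0.130 and 0.163). Within slide row 1 it was -2.62 and within row 2 -0.82. The call was lost with the embryo as a fixed block (limma adjusted p = 0.0931), without a block (0.141), without the filter on dim probes (0.0591) and without any 1 of the 4 embryos (0.0627 to 0.176). It was also lost without any 1 of the 4 paraxial arrays or either embryo 1 neural tube array (limma adjusted p between 0.0534 and 0.112).

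Erbb3, the neuregulin receptor of Schwann cell precursors, had the widest span. It read 9.78 and 11.86 in mutant neural tube and 9.31 and 11.30 in wild-type neural tube, against 12.84 and 13.13 in mutant and 12.99 and 13.32 in wild-type paraxial tissue. Again no neural tube array reached the lowest paraxial array. The difference was -2.50 ± 0.41 (limma adjusted p = 0.0105), with -2.16 ± 0.57 in mutants (limma adjusted p = 0.0822) and -2.84 ± 0.57 in wild type (limma adjusted p = 0.0567). By slide row it was -3.37 in row 1 and -1.64 in row 2, and the call held without any single array. It was lost without embryo 1 of either genotype (limma adjusted p = 0.0629 for the mutant and 0.0607 for the wild-type embryo).

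Ets1, an ETS family factor, was measured by a pair of probes. The brighter one read 11.80 and 12.18 in mutant neural tube, 11.38 and 12.12 in wild-type neural tube, 13.83 and 13.39 in mutant paraxial tissue, and 13.15 and 13.13 in wild-type paraxial tissue. The groups of the 2 tissues did not overlap. The difference was -1.50 ± 0.18 (limma adjusted p = 0.0046), and Ets1 also passed within mutants (-1.62 ± 0.26, limma adjusted p = 0.0208) and within wild type (-1.39 ± 0.26, limma adjusted p = 0.0489). It passed over both genotypes in all 22 alternative fits. Neither call within a genotype held with the embryo as a fixed block (limma adjusted p = 0.0853 in mutants and 0.162 in wild type), and the wild-type call was lost without the filter on dim probes (0.0893). Within wild type it also failed without any 1 of the 8 arrays, and within mutants without any 1 of the 4 mutant arrays. The probe printed above gave -1.56 ± 0.11, and each of its paraxial arrays was likewise above each neural tube array. Endothelial markers moved with Ets1: 12 of the 24 tested were lower in neural tube and 0 higher (median -0.76), where 6.01% of all genes were lower. The 12 included the ETS factor genes Erg (-1.68 ± 0.19) and Fli1. In neural tube Fli1 was well above background on no mutant array and on 1 wild-type array. It therefore entered the fit only through paraxial tissue, where it was high, and is named as a description. The part of endothelium in the Ets1 values was not tested.

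Ednrb, the endothelin receptor, ran the other way. Its brighter probe, printed above, read 14.07 and 14.48 in mutant neural tube and 14.76 and 14.15 in wild-type neural tube. In paraxial tissue it read 12.71 and 12.53 in mutants and 13.89 and 12.45 in wild type. The lowest neural tube array was above the highest paraxial one, by a small margin set by embryo 1 of wild type. The difference was 1.47 ± 0.22 over both genotypes (limma adjusted p = 0.0075), 1.66 ± 0.30 in mutants (limma adjusted p = 0.0293) and 1.29 ± 0.30 in wild type (limma adjusted p = 0.0835). The second Ednrb probe gave 1.54 ± 0.20 over both genotypes. Both slide rows showed the same direction, 1.12 in row 1 and 1.83 in row 2, and the call over both genotypes was lost without embryo 2 of the mutants (limma adjusted p = 0.0908). In mutants the call was lost with the embryo as a fixed block (limma adjusted p = 0.0748), without the filter on dim probes (0.071), and without any 1 of the 4 mutant arrays or either wild-type neural tube array (0.0502 to 0.199).

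By genotype, 2 of the 7 tested genes were called between the tissues of mutants (Ets1 and Ednrb), where 5.85% of all genes were called, 2.68% as higher and 3.17% as lower in neural tube. In wild type 1 of 7 was called (Ets1), where 2.45% of all genes were, 0.767% as higher and 1.68% as lower. The difference between genotypes in the tissue difference was itself tested. It was 0.37 ± 0.43 for Ednrb and 0.68 ± 0.81 for Erbb3 (mutant minus wild type), and no gene of the 7 passed.

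**Figure D2:**
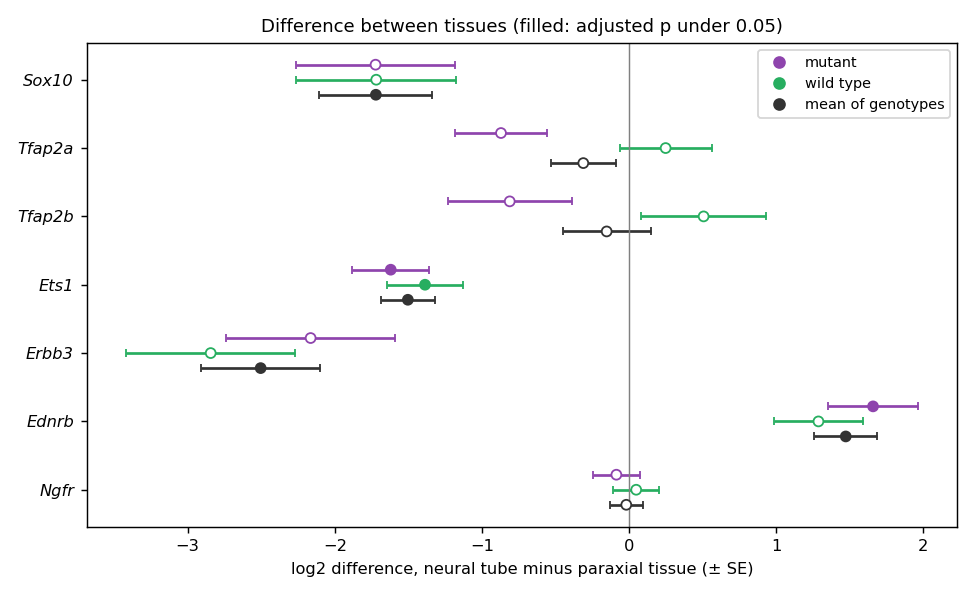
Difference between neural tube and paraxial tissue (horizontal axis, log2, neural tube minus paraxial tissue) with its standard error for the 7 tested genes, in mutants, in wild type and as the mean of both genotypes; filled points passed an adjusted p of 0.05 in limma. Sox10, Ets1 and Erbb3 lie to the left of 0 and Ednrb to the right in both genotypes, while Tfap2a and Tfap2b lie left of 0 in mutants and right of it in wild type.

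The remaining receptor, Ngfr, was nearly level. Its probe, spotted 10 times on each array with a standard deviation between spots of 0.05 to 0.13, read 15.03 and 15.40 in mutant neural tube and 15.22 and 15.29 in wild-type neural tube. In paraxial tissue it read 15.22 and 15.38 in mutants and 15.05 and 15.36 in wild type. The 4 groups overlapped fully. The tissue difference was -0.02 ± 0.11, with a 95% interval from -0.28 to 0.25, so that a difference of the size seen for Ednrb or Erbb3 lies outside the interval.

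The AP-2 genes overlapped between the tissues. Tfap2a read 11.75 and 12.71 in mutant neural tube, 12.74 and 12.21 in wild-type neural tube, 13.27 and 12.93 in mutant paraxial tissue, and 12.59 and 11.87 in wild-type paraxial tissue. Tfap2b read 8.96 and 10.57, 10.78 and 10.18, 10.69 and 10.46, and 10.39 and 9.56 in the same order of groups. By these probes both mutant paraxial arrays were above both wild-type paraxial arrays, and embryo 1 of mutant neural tube was the lowest array of all. The second Tfap2a probe did not show this: it read 10.04 and 10.47 in mutant neural tube, 10.93 and 10.46 in wild-type neural tube, 11.04 and 10.60 in mutant paraxial tissue, and 10.73 and 9.83 in wild-type paraxial tissue. Its genotypes overlapped in paraxial tissue, and embryo 2 of wild-type paraxial tissue was its lowest array. The share of all genes whose mutant paraxial arrays both lay above those of wild type was not counted. The tissue difference was -0.31 ± 0.22 for Tfap2a and -0.15 ± 0.30 for Tfap2b over both genotypes (limma adjusted p = 0.429 and 0.792).

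Foxd3, an early crest specifier, was near the detection limit. Its probe was well above background on 2 of 8 arrays, embryo 2 of wild-type neural tube (8.62) and embryo 1 of wild-type paraxial tissue (7.63), and so did not enter the fit. The other readings were 4.66 and 6.49 in mutant neural tube, 6.01 in wild-type neural tube, 7.20 and 4.67 in mutant paraxial tissue, and 5.88 in wild-type paraxial tissue. On no mutant array was it well above background. The neural tube readings of the genotypes overlapped, and no fold is given in either tissue, since at most 1 array of a group measured the gene. The share of all probes well above background was 73.7% and 74.2% in mutant neural tube, against 77.7% and 78.1% in wild-type neural tube, and its part in these readings was not tested. In a fit without the filter on dim probes the neural tube difference was -1.74 ± 1.71 (limma adjusted p = 0.848).

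The embryos differed among themselves in a way that crossed the genotypes. In neural tube, Sox10 was 1.64 higher in embryo 2 than in embryo 1 of the mutants and 1.69 higher in embryo 2 than in embryo 1 of wild type (log2). Erbb3 was higher in embryo 2 by 2.08 and 1.99. These gaps were larger than those of 95.5% to 97.4% of genes in the same pairs of arrays. The paraxial gaps of the same genes were small, between -0.22 and 0.33.

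Some markers of the neighbouring tissue moved with these gaps, and others did so in 1 genotype. Averaged over its 15 genes and set against the mean over all arrays, the muscle precursor list stood at -2.0 in embryo 1 and -0.91 in embryo 2 of mutant neural tube, and at -1.63 and -0.96 in wild-type neural tube. The sclerotome list stood at -1.15 and -1.01 in mutant and at -2.24 and -0.37 in wild-type neural tube, so that its embryos differed little in mutants. The endothelial list stood at -0.78 and -0.32 in mutant and -0.72 and 0.04 in wild-type neural tube. The dorsal root ganglion list stood at -0.75 and 0.51 in mutant and at 0.40 and 0.43 in wild-type neural tube, so that it moved with the gap in mutants and not in wild type. The summed scaled signal of the muscle list was 13375 to 26913 in mutant and 20668 to 26493 in wild-type neural tube, against 88374 to 155372 in mutant and 151916 to 274285 in wild-type paraxial tissue. The part of neighbouring cells in the Sox10 and Erbb3 values was not tested. Slide row and embryo number coincide, so that row and embryo cannot be told apart.

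Sox10 and Erbb3 varied together more closely than any other pair of these genes over the 8 arrays (Pearson r 0.98). After removing the group means their r was 0.971, next to 0.974 for Tfap2a and Tfap2b. Tfap2a and Tfap2b formed a second pair (0.89, and 0.97 within groups). Ets1 followed Sox10 (0.91, and 0.85 within groups), while Ednrb ran against Ets1 (-0.86) through the tissue difference, since within groups the correlation was -0.12. These coefficients describe 8 arrays from 4 embryos and carry no test. Among all genes tested, the one most like Sox10 was Erbb3 itself, followed by Tgfbr3 (0.98), a transcript listed only by an Ensembl identifier, Dlc1 and Epha7 (0.98 each). For Tfap2a they were Taar7f (0.97), LOC100046253 (0.96), A530058O07Rik, an interval probe without a gene symbol, and Chid1 (0.93). For Foxd3, most of whose values were not well above background, they were Acadl (0.97), Trim13, LOC669999, Itm2b and Mpc1.

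**Figure D3:**
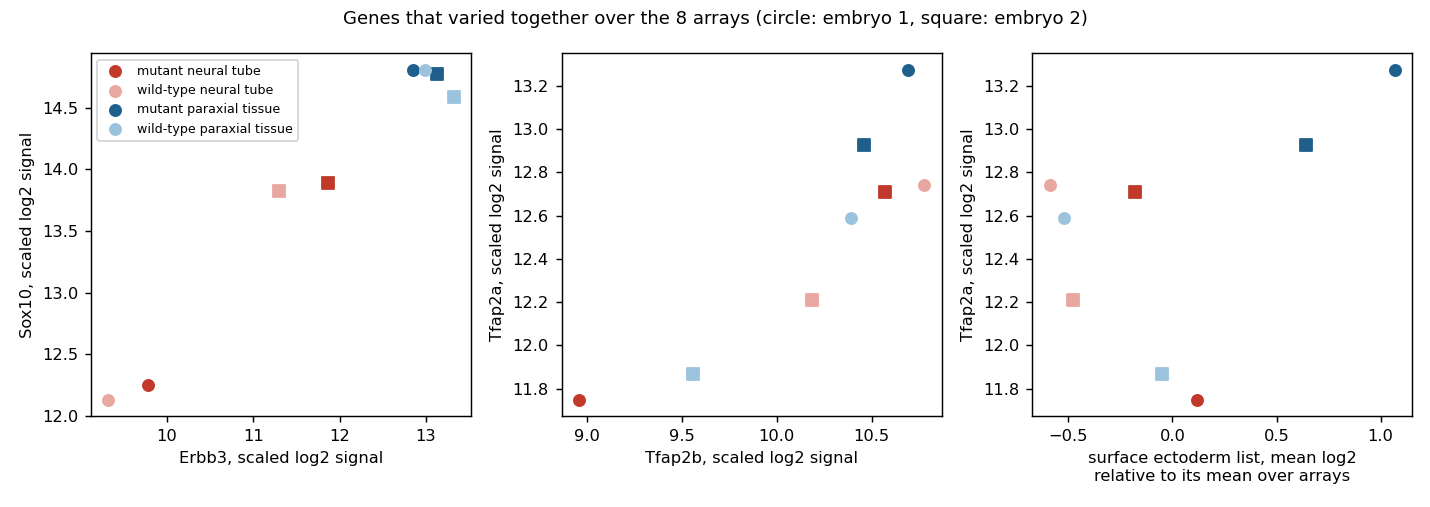
Scaled log2 signals over the 8 arrays of Sox10 against Erbb3 (left), Tfap2a against Tfap2b (middle) and Tfap2a against the mean of the surface ectoderm list, centred on its average over arrays (right), with circles for embryo 1 and squares for embryo 2. The embryo 1 neural tube arrays of both genotypes sit together at the low end of the Sox10 and Erbb3 panel, and the mutant paraxial arrays are highest in both Tfap2a and surface ectoderm genes.

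Loss of Geminin was not followed by a change that passed the test in any of these genes. Between mutants and wild type, 0 of the 7 tested genes were called in either tissue, where limma called 0% of all 28940 genes, although 1050 in neural tube and 971 in paraxial tissue had an unadjusted p under 0.05. In neural tube the mutant minus wild type difference was 0.09 ± 0.86 for Sox10, 0.51 ± 0.91 for Erbb3, 0.24 ± 0.42 for Ets1, -0.18 ± 0.48 for Ednrb and -0.04 ± 0.25 for Ngfr. In paraxial tissue it was 0.09 ± 0.86 for Sox10, -0.17 ± 0.91 for Erbb3, 0.47 ± 0.42 for Ets1, -0.55 ± 0.48 for Ednrb and 0.09 ± 0.25 for Ngfr. The precision differed between genes. The 95% interval in neural tube ran from -1.95 to 2.13 for Sox10, and from -0.64 to 0.55 for Ngfr.

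The second Ets1 probe separated the genotypes more clearly than the first. It read 12.002 and 12.05 in mutant neural tube, against 11.15 and 11.21 in wild-type neural tube, and 13.57 and 13.30 in mutant paraxial tissue, against 12.80 and 12.97 in wild-type paraxial tissue. Both mutant arrays were above both wild-type arrays in each tissue, but the tissues came from the same embryos. The share of all probes separated in this way was not counted. In paraxial tissue endothelial markers stood higher in mutants, as both Ets1 probes did. The list stood at 0.83 and 0.66 on the mutant arrays, against 0.04 and 0.26 on those of wild type. Of its 24 genes, 22 were above 0 in the mutant minus wild type difference (median 0.66, against 0.03 over all genes), with 0 called. In neural tube it stood at -0.78 and -0.32 on the mutant arrays, against -0.72 and 0.04 on those of wild type, and the part of endothelium in these Ets1 values was not tested. The neural tube difference was 0.84 ± 0.24, with an unadjusted p of 0.0106 and an adjusted p of 0.918 in a limma fit over all kept probes. The brighter probe overlapped between genotypes in neural tube, so the probes of this gene did not give the same picture there. In paraxial tissue both mutant arrays were above both wild-type arrays by the brighter probe as well.

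The AP-2 genes showed the least even pattern between genotypes. Tfap2a differed by -0.25 ± 0.50 in neural tube and by 0.87 ± 0.50 in paraxial tissue, and Tfap2b by -0.72 ± 0.67 and 0.60 ± 0.67. The difference between these changes, neural tube minus paraxial tissue, was -1.12 ± 0.44 for Tfap2a (unadjusted p = 0.0396, limma adjusted p = 0.957) and -1.32 ± 0.60 for Tfap2b (unadjusted p = 0.0634). Within embryos the tissue difference of Tfap2a was -1.52 and -0.22 in mutants and 0.15 and 0.35 in wild type. Neither gene passed, and limma called 0% of all genes there, with 1495 at an unadjusted p under 0.05. By slide row the neural tube change of Tfap2a was -0.99 in row 1 and 0.50 in row 2, whereas its paraxial change was 0.68 and 1.06. For Tfap2b these were -1.82 and 0.39 in neural tube and 0.30 and 0.90 in paraxial tissue. The second Tfap2a probe gave -0.44 ± 0.42 in neural tube and 0.54 ± 0.42 in paraxial tissue.

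Surface ectoderm markers stood higher in mutant than in wild-type paraxial tissue, as the AP-2 genes did by the probes that stand for them. Between the wild-type embryos they ran the other way. There embryo 1 had the higher Tfap2a (12.59, against 11.87) and Tfap2b (10.39, against 9.56) and the lower mean of the surface ectoderm list. The mean of the 21 tested genes of that list stood at 1.07 and 0.64 in mutant paraxial tissue, against -0.52 and -0.05 in wild-type paraxial tissue. In the mutant minus wild type difference 20 of the 21 were above 0 (median 1.14, against 0.03 over all genes), with 0 called. The 21 include Dsp, which was well above background on both mutant paraxial arrays and on no other array. Dsp therefore entered the fit only through the group in which it was high. Krt18, a simple epithelial keratin, differed by 2.13 ± 0.48 and Epcam, an epithelial adhesion molecule, by 1.74 ± 0.43 (limma adjusted p = 0.995 each). The summed signal of the list was 372688 to 419538 in mutant, against 274898 to 315840 in wild-type paraxial tissue. In neural tube its mean was 0.12 and -0.18 on the mutant arrays, against -0.59 and -0.48 on those of wild type. The mutant minus wild type differences of Tfap2a (-0.25) and Tfap2b (-0.72) lay below 0 there. The part of surface ectoderm in the Tfap2a and Tfap2b values was not tested.

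In paraxial tissue, sensory and neuronal markers were highest on the array with the highest Ednrb, but did not follow Ednrb among the other arrays. Ednrb was lowest in embryo 2 of wild type (12.45), where both lists stood above those of the mutants. Embryo 1 of wild type, the paraxial array with the highest Ednrb, had the dorsal root ganglion list at 0.86 and the neuron list at 0.47, against -0.37 and -0.81 in embryo 2 of wild type, -0.50 and -1.0 in embryo 1 of the mutants, and -0.59 and -1.01 in embryo 2 of the mutants. The melanoblast list was also highest in embryo 1 of wild type (0.37), against 0.03 and 0 in the mutants and -0.45 in embryo 2 of wild type. Without embryo 1 of wild type, the paraxial difference of Ednrb between genotypes turned to 0.17. The part of ganglion or neuronal cells in that difference was not tested.

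**Figure D4:**
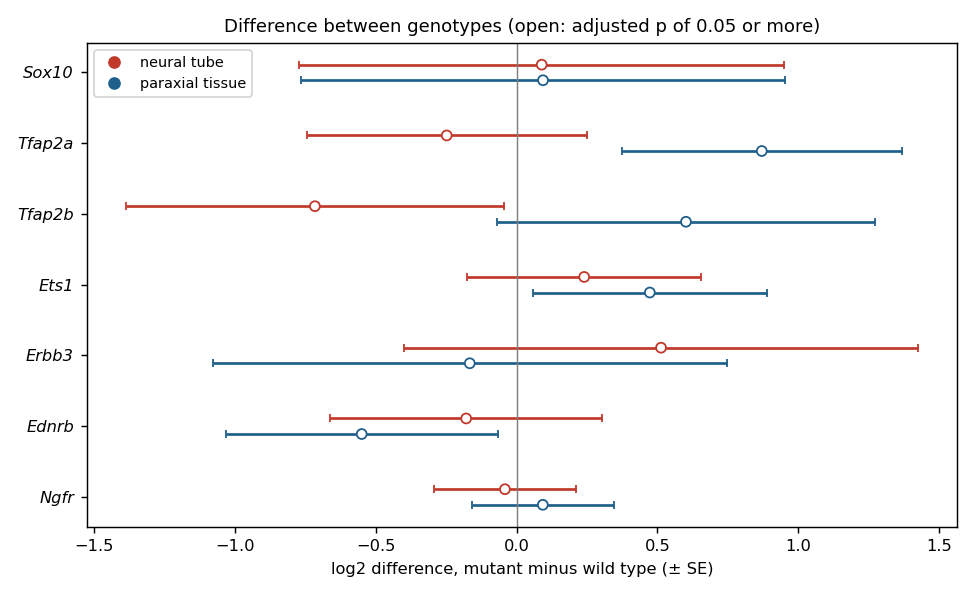
Difference between genotypes (horizontal axis, log2, mutant minus wild type) with its standard error for the 7 tested genes in neural tube and in paraxial tissue; all points are open since none passed an adjusted p of 0.05 in limma. Tfap2a and Tfap2b lie left of 0 in neural tube and right of 0 in paraxial tissue, and the bars of Sox10 and Erbb3 are the widest.

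The other crest specifiers and border genes were also divided by tissue. Of 23 tested, 4 were higher and 6 lower in neural tube over both genotypes (median -0.06, against -0.02 over all genes). Of all genes 5.94% were called higher and 6.01% lower. The 4 higher ones were Wnt3a (at least 1.59-fold) and Wnt1 (0.82 ± 0.11), signals of the dorsal midline, and Pax7 (1.20 ± 0.24) and Msx1 (0.80 ± 0.19), factors of the dorsal neural tube. Lower in neural tube were Twist1 (-2.81 ± 0.24), Snai2 (-2.41 ± 0.26) and Snai1 (-2.18 ± 0.38), factors of migrating crest and of mesenchyme, with Myc (-1.66 ± 0.20), Sox5 and Cdh11. Each of these passed at a limma adjusted p under 0.05. Wnt3a was well above background on 3 of 4 neural tube arrays and on no paraxial array, so that only a bound is given, and it entered the fit only through mutant neural tube, where both arrays measured it. Twist1 also stands on the sclerotome list and Wnt1, Wnt3a, Msx1 and Pax7 on that of the dorsal neural tube. Between genotypes 0 of the 23 passed in either tissue. The smallest unadjusted p was that of Sox5 in paraxial tissue (-1.26 ± 0.32, limma adjusted p = 0.995).

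Among genes of Schwann cell precursors and satellite glia, 4 of 19 tested were higher in neural tube and 4 lower (median -0.11). Of all genes 5.94% were called higher and 6.01% lower in that comparison. Those of the list that were lower in neural tube included the Schwann cell signal Dhh (-0.95 ± 0.11) and the integrin subunit gene Itga4 (-2.02 ± 0.29), together with Postn (-1.56 ± 0.32). Those higher in neural tube were Itgb8 (2.28 ± 0.25), Sox2 (2.22 ± 0.31), Fabp7 (2.50 ± 0.38) and Mbp (0.95 ± 0.24). Sox2 and Fabp7 are made by neural tube progenitors and radial glia as well as by peripheral glia. In mutants against wild type 0 of 19 passed. In paraxial tissue 12 of 19 lay below 0 (median -0.54, against 0.03 over all genes), with Fabp7 at -1.82 ± 0.85 (limma adjusted p = 0.995). Of all genes 53.4% lay above 0 there. The list stood at -0.29 and -0.30 in the mutant embryos, against 0.43 in embryo 1 and -0.18 in embryo 2 of wild type, and the highest of the 4 was the wild-type array on which ganglion and neuron markers were also highest.

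Genes of the pathway list drawn up around the 3 receptors were mostly on the paraxial side where they differed. Of 27 tested genes of the ERBB, endothelin and neurotrophin pathways, 9 were lower and 2 higher in neural tube over both genotypes (median -0.07). The list also holds Kit, Ret and ligands of theirs. Of all genes 6.01% were called lower and 5.94% higher. Edn3, which encodes the ligand of Ednrb, was well above background on no neural tube array and on 3 of 4 paraxial arrays, and at least 1.62-fold lower in neural tube. It entered the fit only through wild-type paraxial tissue, where both arrays measured it, and is given as a description. Also lower were Ednra (-2.42 ± 0.35), the other endothelin receptor, and Ece1 (-0.71 ± 0.10), the enzyme that matures endothelins. Erbb2, the partner of Erbb3, was lower in neural tube (-0.56 ± 0.12). Artn (-2.12 ± 0.21), a ligand of the Ret receptor complex, and Ntf3 (-0.96 ± 0.14), a neurotrophin, were lower as well. Sort1 (0.84 ± 0.15), a partner of Ngfr, and Kit (0.83) were the 2 that were higher. Between genotypes 0 of 27 passed. Gdnf, another Ret ligand, was well above background on both mutant paraxial arrays and on none of the other 6. It was at least 2.78-fold higher in mutant than in wild-type paraxial tissue, did not pass (limma adjusted p = 0.995), and entered the fit only through the group in which it was high.

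Dorsal root ganglion genes mark the sensory neurons that arise beside Sox10-expressing glia. Of 17 tested, 1 was lower in neural tube and 3 were higher, in a comparison that called 12.0% of all genes. The higher ones were Neurog2 (2.04 ± 0.28), Neurod4 (1.43 ± 0.22) and Neurog1 (1.76 ± 0.32), proneural factors that the neural tube also makes. In paraxial tissue 16 of the 17 lay below 0 in mutants against wild type (median -0.69, against 0.03 over all genes) with 0 called. Ntrk3, a neurotrophin receptor gene, stood at -1.97 ± 0.96 (limma adjusted p = 0.995). The wild-type level rested on embryo 1, as given above for Ednrb.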

How the data were processed

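RNA from laser-captured neural tube and paraxial tissue was measured on 8 Agilent 1-colour (Cy5) arrays. Per the file headers, the deposited intensity values are linear processed red signals from Agilent Feature Extraction 11.0.1.1, with spatial and multiplicative detrending switched on, each array in a file of its own. The authors' value table gave the same intensities to within 0.497%. From these, 3671 control spots of 62976 and outlier-marked spots were left out, spots of a probe averaged, and log2 signals scaled to the 75th percentile of each array. Probes not well above background on both arrays of any group were dropped, leaving 42754 of 55664. Names came from RefSeq accessions (26056 probes), symbols (3200) or the files (26425). Each of 28940 genes was represented by its brightest remaining probe. Lists were compared by counts and medians only, and some listed genes are not reported here by name.

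Group means were fitted with limma 3.58.1 in R 4.3.3 (package data.table, version 1.17.8), with a random embryo effect (duplicateCorrelation, 0.603; 4 residual and 2.93 prior degrees of freedom), eBayes and Benjamini-Hochberg adjustment over all genes. Labels give the embryo of each array; both tissues of an embryo deviated together (r across genes 0.607 in mutants, 0.562 in wild type). The code was tested on simulated data. The genes, the 16 lists and the comparisons were chosen with earlier results of these data known. Named are all 8 genes, up to 4 per list by smallest unadjusted p together with defining markers (further called genes were named after their values were seen), 5 genes most like Sox10, Foxd3 and Tfap2a, and Gmnn. Arrays carry no read depth, and their number limits the precision. Alternatives were other scaling, background correction, filter, probe rule, moderation, blocks and left-out arrays or embryos.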

Additional observations from a re-analysis of the deposited data

How the results depend on the processing

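The tissue directions of Sox10, Erbb3, Ets1 and Ednrb held in all 22 alternative fits. Over both genotypes Ets1 was called in 22 of 22, Ednrb in 20, Erbb3 in 19 and Sox10 in 9, and between genotypes no gene of the 7 was called in any. The embryo supplies the pairing, and the replicate number as a further block called none of the 7 between genotypes. Without a replicate block 0 genes passed in mutants, 4 in wild type and 593 over both genotypes, of which 0, 0 and 1 (Ets1) were among the 7. With the embryo as a fixed replicate block the counts were 211, 51 and 1973, with 0, 0 and 3 of the 7, Sox10 being the call lost over both genotypes. Without the filter they were 610, 362 and 2298, with 1, 0 and 3 of the 7. In wild type 3 of the 7 were called under median scaling (976 genes), normexp (1510 genes) and trend with robust moderation (1089 genes). When all 8 arrays had to be well above background 2 were called, with 917 of 25679 genes. The main fit called 1 of the 7 there, with 709 genes. Of the genes called over both genotypes 49.7% were higher in neural tube, against 39.4% under normexp, and in wild type 31.3%, against 41.3% under median scaling. The median difference of all genes between genotypes in paraxial tissue was 0.031, and 0.124 under median scaling. Leaving out an array or an embryo gave 0 to 1589 genes in mutants (0 to 2 of the 7), 31 to 586 in wild type (0 to 1) and 794 to 3497 over both genotypes (2 to 4). Between genotypes it gave 0 to 16 in paraxial tissue and 0 to 19 for the interaction. The correlation of 0.603 was kept in these fits, and a lone array was assumed to vary like the other groups.

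Signs that turned belonged to differences that had not passed. Under quantile normalization they were Sox10 in paraxial tissue (-0.084) and in the interaction (0.14), Ngfr in paraxial tissue (-0.11) and Ngfr between tissues over both genotypes (0.057). Ngfr in neural tube turned under median scaling (0.046), and the Ets1 interaction with the mean of its probes (0.028). The ranges with an array or embryo left out were, for mutants against wild type in neural tube, -0.83 to 1.00 for Sox10, -0.83 to 0.34 for Tfap2a, -1.60 to 0.16 for Tfap2b, -0.53 to 1.55 for Erbb3, -0.14 to 0.62 for Ets1, -0.23 to 0.14 for Ngfr and -0.48 to 0.13 for Ednrb. In paraxial tissue they were -0.53 to 0.72 for Sox10, -0.0034 to 1.21 for Tfap2b, -0.65 to 0.32 for Erbb3, -0.065 to 0.25 for Ngfr and -1.27 to 0.17 for Ednrb. For the interaction they were -0.96 to 0.95 for Sox10, -0.27 to 1.63 for Erbb3, -0.65 to 0.18 for Ets1 and -0.16 to 0.90 for Ednrb. Between tissues they were -1.74 to 0.11 for Tfap2b and -0.22 to 0.047 for Ngfr in mutants, -0.086 to 0.18 for Ngfr in wild type, and -0.64 to 0.016 for Tfap2a, -0.61 to 0.31 for Tfap2b and -0.086 to 0.048 for Ngfr over both genotypes. The cause was not tested.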

Other observations

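Genes that guide migrating crest differed by tissue in both directions. Of 22 tested, 6 were higher and 5 lower in neural tube over both genotypes (limma adjusted p under 0.05). Of all genes 5.94% were called higher and 6.01% lower. Slit1 (1.44 ± 0.13) and Cxcr4 (1.58 ± 0.20), a repellent of axons and crest and the receptor of Cxcl12, were higher in neural tube. Sema3a (-1.27 ± 0.15), which repels crest, and Vcan (-0.87 ± 0.12), a matrix proteoglycan, were lower, as was Cxcl12 itself (-1.59 ± 0.31). Between mutants and wild type 0 of the 22 passed in either tissue by limma.

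In the same comparison, which called 12.0% of all genes, 2 of 10 melanoblast, 3 of 11 sympathetic and 7 of 19 neural tube glial genes were called. Of the 10 tested melanoblast genes, Mitf was lower in neural tube (-0.69 ± 0.13) and Kit higher (0.83 ± 0.18). Of the 11 sympathetic genes, 3 were higher in neural tube, with Insm1 (1.79 ± 0.41) and Ddc (0.97 ± 0.24) among them. Among the 19 glial and oligodendrocyte precursor genes of the neural tube, 6 were higher there, with Nkx2-2 (2.60 ± 0.15) and Olig2 (2.85 ± 0.38) among them, and Pdgfra was lower (-2.46 ± 0.24). In these 3 lists limma called 0 genes between mutants and wild type in either tissue.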
